A study of Mus musculus with 3 samples.

Results

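The 10 genes described here, Tead1, Lats2, Ajuba, Amotl1, Amotl2, Ptpn14, Nuak2, Axl, Crim1 and Ankrd1, are known transcriptional targets of the coactivators YAP and TAZ. They were taken by symbol from a table of 27179 genes. All 10 were found and all 10 had a mean level of at least 50 normalised counts over the 3 libraries, as did 11067 genes in all. Each was measured by messenger RNA sequencing in mouse bone marrow stromal cell cultures, grown at 3% oxygen and given extracellular vesicles for 3 days. Vesicles are membrane particles released by cells, and these came from bone marrow plasma.

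The Ocn-EV culture received vesicles of mice that carry CAGS-Snorkel and Ocn-Cre, a driver active in mature osteoblasts. The Prx1-EV culture received vesicles of mice that carry CAGS-Snorkel and Prx1-Cre, a driver active in limb mesenchyme and the cells that descend from it. The All-EV culture received vesicles of wild-type mice, the control. All donor mice were C57BL/6N and 6 months old, and plasma of 5 mice (2 males, 3 females) was pooled for each preparation. Vesicles of every group, the wild-type group included, are described as bound to beads by an HA antibody, and the labels used here do not say how wild-type vesicles were held there. The treated cells are labelled wild type in every group. There was 1 culture and 1 library per group, so the spread between cultures is unknown and no test between groups could be made. "Higher" and "lower" compare single libraries, and ranges in parentheses are 95% intervals that cover counting error only.

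YAP and its relative TAZ (gene Wwtr1) enter the nucleus when the Hippo kinases are inactive, for example in spread cells on a stiff matrix, and bind DNA through the TEAD factors. When the kinases LATS1 and LATS2 phosphorylate them they stay in the cytoplasm. Several of their targets encode brakes on the same pathway, so a set of YAP and TAZ targets holds both outputs and feedback regulators. In stromal cells the pathway is known for its response to matrix stiffness and cell shape and for effects on osteoblast and adipocyte fate.

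TEAD factors recognise a DNA core of 6 bases, GGAATG on one strand and CATTCC on the other. RefSeq promoter windows (GRCm38.p6, the build mm10 that the submitters' processing notes name) were at hand for 8 of the 10 members, with 2 start sites for Lats2 and none for Tead1 and Nuak2. In the 250 bases before the start, 6 of these 8 genes held the core on either strand, against 12.6% of all 32851 windows and 12.4% of the 8843 genes that passed the expression filter and have a window. Ajuba and Ankrd1 held it at 2 places each. The members were picked as known targets, so this count is a description and not evidence of binding in these cultures. The stretches of the 6 genes that hold the core are shown, 5′ to 3′ on the strand of the gene with the core in capitals. They are, in order, Ajuba (chr14:54577780-54577887, minus strand, bases −226 to −119 from the start), the upstream and the downstream core of Ankrd1 (chr19:36120037-36120066 and chr19:36119950-36119979, minus strand), Amotl2 (chr9:102717727-102717756, plus strand), Crim1 (chr17:78200129-78200214, plus strand), Ptpn14 (chr1:189728082-189728167, plus strand) and Axl (chr7:25788921-25788983, minus strand). The Ankrd1 and Amotl2 stretches lie in exons that GENCODE annotates and are cut to 30 bases.
Ajuba: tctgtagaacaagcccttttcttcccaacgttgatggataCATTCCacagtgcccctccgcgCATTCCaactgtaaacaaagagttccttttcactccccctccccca
Ankrd1 upstream core: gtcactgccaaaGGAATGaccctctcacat
Ankrd1 downstream core: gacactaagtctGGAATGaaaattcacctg
Amotl2: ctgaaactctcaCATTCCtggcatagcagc
Crim1: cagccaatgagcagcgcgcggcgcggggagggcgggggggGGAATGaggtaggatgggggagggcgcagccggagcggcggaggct
Ptpn14: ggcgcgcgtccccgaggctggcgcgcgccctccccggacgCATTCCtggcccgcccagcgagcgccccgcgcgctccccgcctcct
Axl: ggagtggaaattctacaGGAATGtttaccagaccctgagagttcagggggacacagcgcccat

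The core was not in the 250 bases before the Amotl1 start or before either Lats2 start, although a Lats2 window held it 5 bases after the start. Spacing differed among the members. The core lay 65 bases before the start in Amotl2 and 79 in Crim1, and as far as 233 bases before it in Axl. These distances depend on the start that each window takes. RefSeq extends the Amotl2 gene farther upstream, to chr9:102717091, and the Axl gene to chr7:25788924. Bases just after the start were found in GENCODE transcripts of the gene for 7 of the 9 windows. The motif TGANTCA, bound by AP-1 factors that often act beside TEAD at enhancers, was in none of the 8 genes' windows, against 6.75% of all windows over the same 250 bases. The CArG box of the actin-responsive factor SRF was in none either, against 1.47%. No match says only that these letters are not in these windows.

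**Figure D1:**
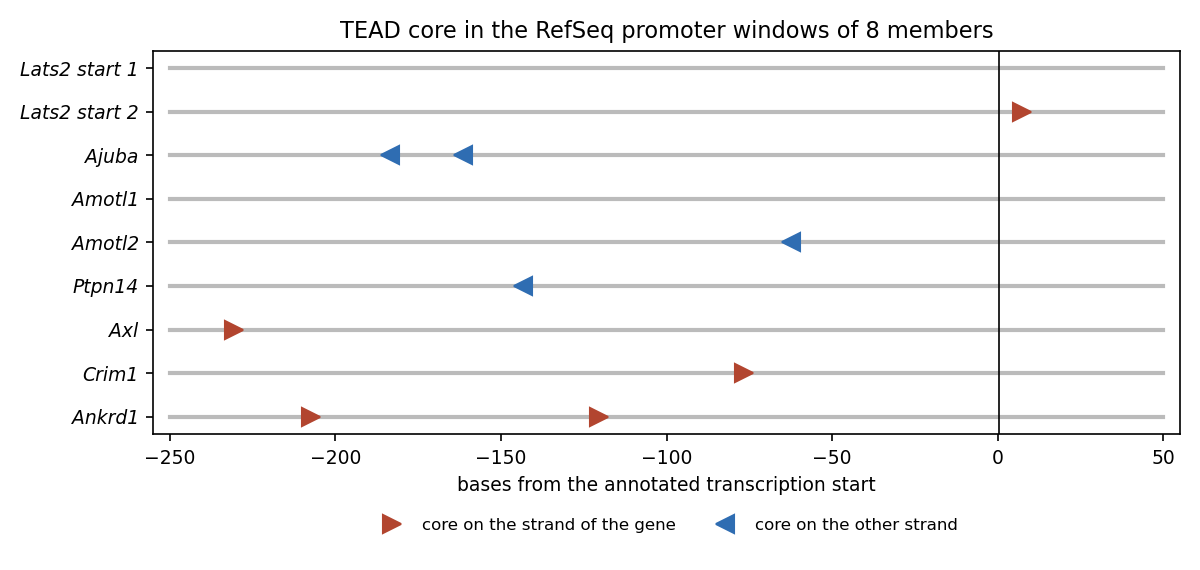
Position of the TEAD core in the promoter windows of 8 members, in bases from the annotated start (vertical line), with 1 grey line per window and an arrowhead per match that points along the strand of the core. The core lay upstream of the start in Ajuba and Ankrd1 (2 matches each), Amotl2, Ptpn14, Axl and Crim1, and in no window of Amotl1.

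Every member had a higher level in the Ocn-EV library than in the All-EV library, and 9 of 10 were at least 1.5-fold higher, against 13.8% of all genes that passed the filter. None was lower by that amount, against 13.6% of all genes. The median log2 ratio of the 10 was 0.91, where that of all 11067 genes was −0.02. Between Prx1-EV and All-EV the count was again 9 of 10 higher (12.7% of all genes) and 0 lower (12.7% of all genes), with a median log2 ratio of 0.80 beside 0.00 for all genes. Both comparisons use the same All-EV library, so they are not independent of each other. The 10 genes were chosen with earlier results of these data known, so these counts describe the list and do not test it. The members together took 0.0570% (0.0558 to 0.0583) of reads in Ocn-EV, 0.0507% (0.0497 to 0.0518) in Prx1-EV and 0.0250% (0.0242 to 0.0257) in All-EV.

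Tead1 encodes the DNA-binding partner of YAP and TAZ and is itself on the list. It stood at 749 normalised counts in Ocn-EV and 695 in Prx1-EV, against 295 in All-EV. The log2 ratios to All-EV were 1.34 (1.14 to 1.55) with Ocn-EV and 1.23 (1.03 to 1.44) with Prx1-EV. The All-EV library was the low one, and the Ocn-EV level lay within counting error of the Prx1-EV level (log2 0.11, −0.04 to 0.25).

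Lats2, the kinase that phosphorylates YAP and TAZ and is also induced by them, was the member that moved least. Its levels were 1051 in Ocn-EV, 987 in Prx1-EV and 788 in All-EV. At 1.33-fold (Ocn-EV) and 1.25-fold (Prx1-EV) it was the single member under 1.5-fold in each comparison with All-EV, with log2 ratios of 0.42 (0.28 to 0.56) and 0.32 (0.19 to 0.46). With libraries scaled to the same total of reads, which moved the median of all genes to 0.24 (Ocn-EV) and 0.22 (Prx1-EV), Lats2 stood at 0.67 and 0.55. GENCODE places a second gene, Gm49361, on the same strand over 42.4% of the Lats2 exon bases, and the treatment of reads that fall in overlapping genes is not stated in the labels used here. Apart from Lats2, exons of another gene cover 2.05% of the Crim1 exon bases and 1.32% of those of Ptpn14, both on the opposite strand, and none of those of the other 7 members.

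Ajuba, a LIM-domain protein of cell junctions that binds and restrains the LATS kinases, stood farthest from All-EV. It had 210.2 normalised counts in Ocn-EV and 208 in Prx1-EV, against 69.0 in All-EV, which were 203, 238 and 61 reads. The ratios to All-EV were 3.04-fold (log2 1.59, 1.19 to 2.04) and 3.01-fold (log2 1.57, 1.18 to 2.02). The Ocn-EV and Prx1-EV levels were nearly equal, at 1.01-fold. Ajuba was also the member with the fewest reads, and its intervals were the widest in both comparisons.

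Amotl1 and Amotl2 encode relatives of angiomotin, which hold YAP at junctions and actin. Amotl2 stood at 882 in Ocn-EV and 687 in Prx1-EV, against 324 in All-EV. Its log2 ratios to All-EV were 1.44 (1.25 to 1.64) and 1.08 (0.89 to 1.29). Among the 10 it differed most between Ocn-EV and Prx1-EV, at 1.28-fold (log2 0.36, 0.22 to 0.50). Amotl1 had 353 in Ocn-EV and 331.5 in Prx1-EV, against 187 in All-EV, with log2 ratios of 0.92 (0.65 to 1.20) and 0.82 (0.56 to 1.10). For Amotl1 the Ocn-EV and Prx1-EV libraries agree within counting error (log2 0.09, −0.12 to 0.31).

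Ptpn14, a tyrosine phosphatase that binds YAP and keeps it out of the nucleus, had 608 in Ocn-EV, 538 in Prx1-EV and 342 in All-EV. It was 1.78-fold (Ocn-EV) and 1.57-fold (Prx1-EV) above All-EV, the closest to the 1.5-fold line of the members past it. Nuak2, a kinase of the AMPK family that YAP induces and that in turn promotes YAP activity, had 249.5 in Ocn-EV, 215 in Prx1-EV and 135 in All-EV. Its log2 ratios were 0.88 (0.57 to 1.22) and 0.67 (0.36 to 1.01), so the intervals of both reached below 1.5-fold. Nuak2 had 119 reads in All-EV, the second lowest count among the members.

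Axl, a receptor tyrosine kinase whose ligand is Gas6, had 1853 in Ocn-EV and 1611 in Prx1-EV, against 987 in All-EV. It was 1.88-fold and 1.63-fold higher. Crim1, a membrane protein that binds bone morphogenetic proteins, had 1327 in Ocn-EV and 1283 in Prx1-EV, against 746 in All-EV (1.78-fold and 1.72-fold). Ankrd1, an ankyrin-repeat cofactor often read as a reporter of YAP activity, had 1121 in Ocn-EV and 1083 in Prx1-EV, against 522 in All-EV. Its log2 ratios were 1.10 (0.95 to 1.26) and 1.05 (0.90 to 1.21). All 3 were lowest in All-EV, and the Ocn-EV level was at most 1.15-fold the Prx1-EV level (Axl).

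**Figure D2:**
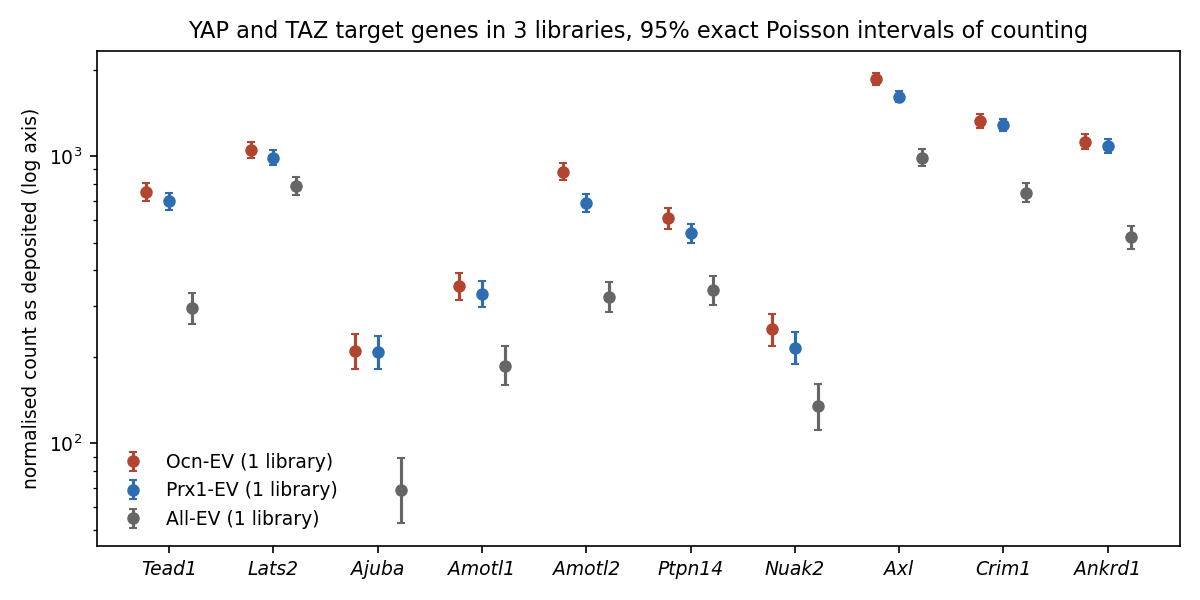
Normalised counts of the 10 members in each library on a log axis, 1 point per library, with 95% exact Poisson intervals of counting. Every All-EV point lies below both others of its gene, from the wide gap of Ajuba (210.2 and 208, against 69.0) to the narrow one of Lats2 (1051 and 987, against 788).

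Ajuba, Amotl2, Tead1 and Ankrd1 were at least 2-fold above All-EV in both comparisons, 4 of 10, where 6.27% of all genes were with Ocn-EV and 5.12% with Prx1-EV. Set among all genes that passed, the members' log2 ratios ran from percentile 79.9 (Lats2) to percentile 97.7 (Ajuba) with Ocn-EV, and from 75.2 (Lats2) to 98.3 (Ajuba) with Prx1-EV. The order of the members was not sharply set. Down the list of ratios with Ocn-EV, from Ajuba, Amotl2, Tead1 and Ankrd1 through Amotl1, Axl, Nuak2, Crim1 and Ptpn14, each interval overlapped that of the next, and Lats2 lay below Ptpn14 with no overlap.

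The third comparison, Ocn-EV against Prx1-EV, had no member at 1.5-fold in either direction (2.24% of all genes were higher and 1.3% lower). The 10 log2 ratios lay between 0.02 (Ajuba) and 0.36 (Amotl2), with a median of 0.10 where all genes had −0.01. Counting intervals lay above 0 for Amotl2, Axl (0.20, 0.11 to 0.30) and Ptpn14 (0.17, 0.01 to 0.34), and held 0 for the other 7. An exact binomial test on the reads with Benjamini-Hochberg adjustment over all genes, which compares these libraries and not the conditions, called Amotl2 and Axl higher with Ocn-EV, where it called 11.2% of all genes higher. The upper limit of the interval was highest for Amotl2 (0.50) and Nuak2 (0.47), and at or below that of Ptpn14 for the other 8 members.

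**Figure D3:**
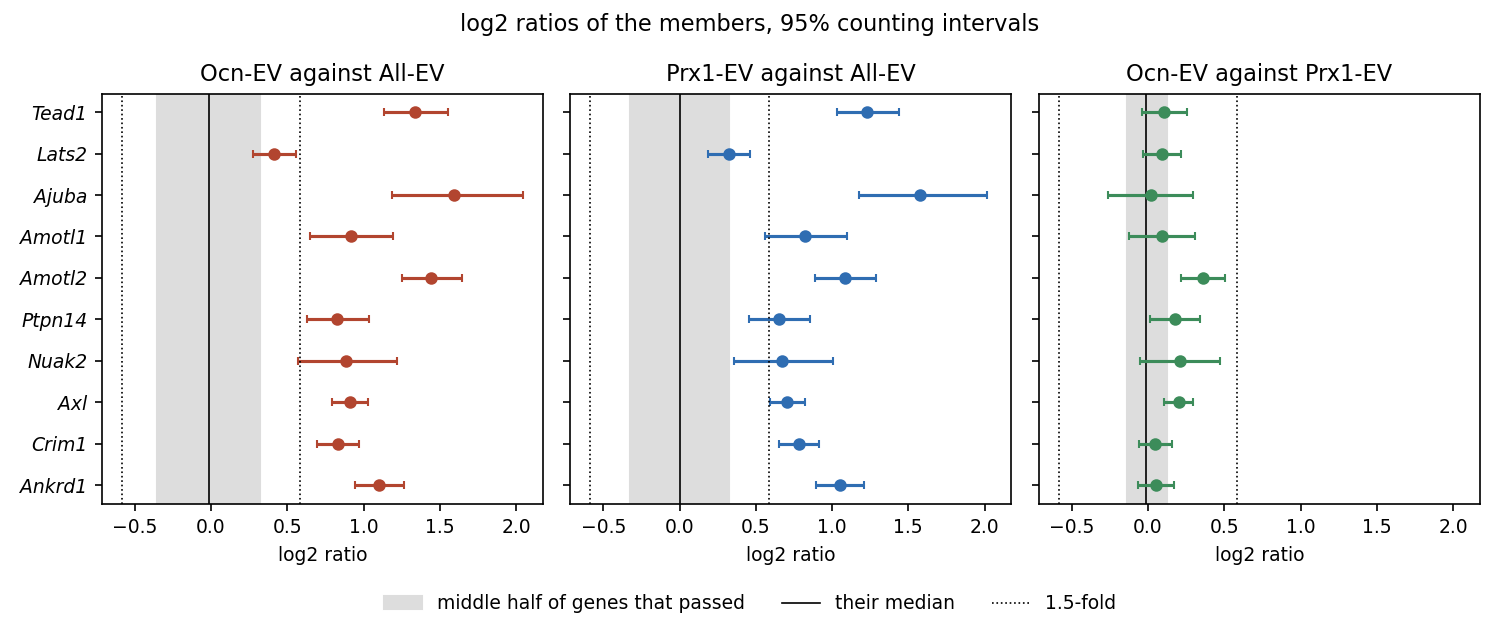
The log2 ratio of each member in the 3 comparisons (points) with 95% counting intervals, beside the median (solid line) and interquartile range (grey) of all genes that passed and the 1.5-fold lines (dotted). In both comparisons with All-EV 9 of 10 points lie past 1.5-fold and Lats2 does not, and between Ocn-EV and Prx1-EV none does.

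Levels can be set against each other between genes once divided by exon length. Per kilobase of exon, Ankrd1 (389 in Ocn-EV, 375 in Prx1-EV) and Axl (368 and 320.1) were the members with the highest level, followed by Crim1 (221 and 214). In All-EV Axl (196) and Ankrd1 (181) led, without a difference beyond counting error between them. Amotl1 had the lowest level per kilobase in each library, at 35.1 in Ocn-EV, 32.9 in Prx1-EV and 18.6 in All-EV. In All-EV, Ptpn14 (25.5), Tead1 (21.8), Ajuba (18.9) and Amotl1 each overlapped the next in the order, so the low end has no set order there.

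The share of a member in the reads of its own gene family does not depend on how libraries are scaled. Ajuba held 13.0% (11.3 to 14.7) of the reads of Ajuba, Limd1 and Wtip in Ocn-EV and 11.6% (10.3 to 13.1) with Prx1-EV, against 4.10% (3.15 to 5.24) in All-EV. The family did not move as one. Limd1, its most abundant gene, had a log2 ratio of −0.40 with Ocn-EV and −0.20 with Prx1-EV, while Wtip stood at 1.54 and 1.48. On the scale of equal totals Limd1 stood at −0.15 with Ocn-EV and turned to 0.03 with Prx1-EV. Over all listed relatives of the members, 10 of 11 passed the filter. With Ocn-EV 7 were higher by 1.5-fold (13.8% of all genes) and 1 was lower, Tyro3 (13.6% of all genes). With Prx1-EV 8 were higher (12.7% of all genes) and 0 lower (12.7% of all genes). With equal totals Tyro3 stood at −0.52, short of 1.5-fold, and 8 were higher and 0 lower in each.

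Tead1 kept a near-constant share of TEAD reads, at 76.3% (73.4 to 78.9) in Ocn-EV, 78.8% (76.2 to 81.3) in Prx1-EV and 77.2% (72.4 to 81.6) in All-EV. Its relatives Tead2 and Tead3 had log2 ratios with Ocn-EV of 1.06 and 1.61. Lats2 likewise held 48.7% (46.5 to 50.8), 47.2% (45.1 to 49.2) and 46.3% (43.8 to 48.9) of the reads of the 2 LATS kinases in Ocn-EV, Prx1-EV and All-EV. Lats1, which is not counted among the targets here, had log2 ratios to All-EV of 0.28 (0.15 to 0.41) and 0.28 (0.15 to 0.40), with intervals that overlap those of Lats2.

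In the angiomotin family the balance lay more toward Amotl2 in Ocn-EV, at 65.6% (63.0 to 68.2) of reads, than in All-EV, at 58.6% (54.1 to 63.0), with 62.3% (59.6 to 65.0) in Prx1-EV, although the outer intervals meet at 63.0%. Amotl1 held 26.3% in Ocn-EV, 30.0% in Prx1-EV and 33.8% in All-EV. Ptpn14 and its relative Ptpn21 split their reads differently in the Ocn-EV and Prx1-EV libraries. Ptpn14 had 55.3% (52.3 to 58.3) of them in Ocn-EV and 43.8% (41.1 to 46.4) with Prx1-EV, against 49.8% (45.8 to 53.9) in All-EV, and Ptpn21 was lower in Ocn-EV than in Prx1-EV (log2 −0.49, −0.66 to −0.33).

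Axl was higher in level but lower as a share of its receptor family. It held 45.4% (43.8 to 46.9) of the reads of Axl, Mertk and Tyro3 in Ocn-EV and 41.7% (40.3 to 43.2) with Prx1-EV, against 51.4% (49.0 to 53.8) in All-EV. Mertk, a receptor that macrophages use to take up dying cells, stood at 2194 in Ocn-EV and 2199 in Prx1-EV, against 866 in All-EV. Their shared ligand Gas6 had 6851 in Ocn-EV and 5359 in Prx1-EV, against 2624 in All-EV. Pros1, listed with the relatives of the members, had log2 ratios of 1.19 and 0.97. Nuak2 held 37.2% (33.5 to 41.0) of NUAK reads in Ocn-EV, 31.3% (28.1 to 34.7) in Prx1-EV and 34.4% (29.4 to 39.7) in All-EV. Ankrd1 made up 92.8% or more of its family's reads in each library.

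**Figure D4:**
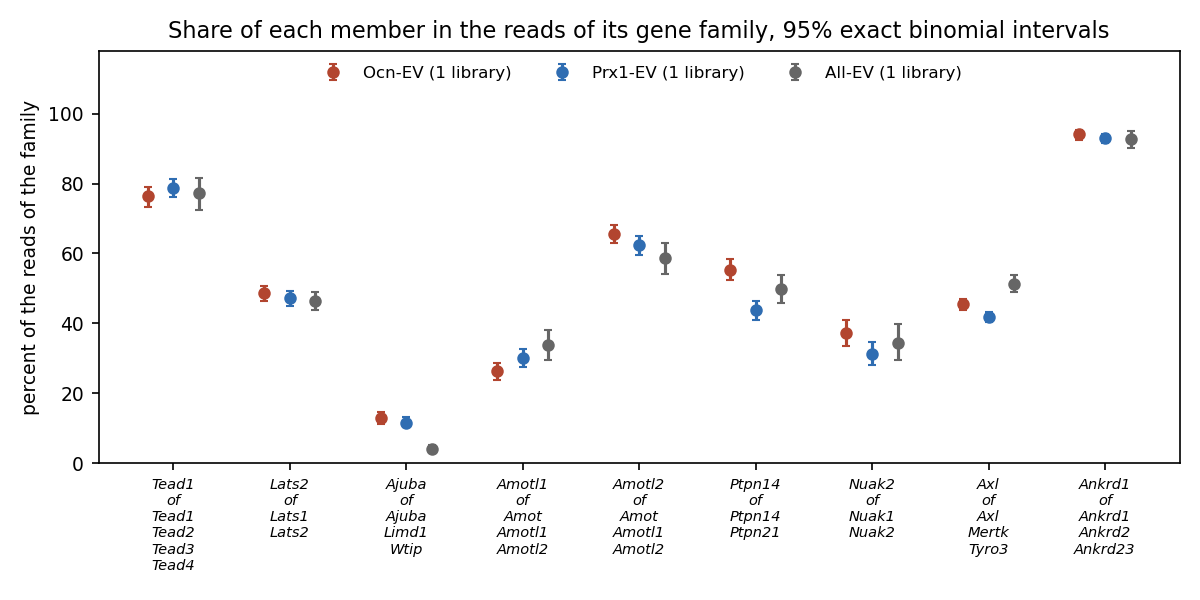
Share of each member in the reads of its gene family, named under each set of points, in percent with 95% exact binomial intervals and 1 point per library. The Ajuba share is higher in Ocn-EV (13.0%) and Prx1-EV (11.6%) than in All-EV (4.10%), the Axl share is highest in All-EV (51.4%), and the Tead1 and Lats2 shares overlap in the 3 libraries.

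The machinery above the targets was read from further lists. As deposited, 13.8% of all genes were at least 1.5-fold higher and 13.6% lower with Ocn-EV, and 12.7% each with Prx1-EV. The counts of this and the later lists stand beside these shares. Matching shares with equal totals, a scale that raises the median of all genes, are not given here. Yap1 stood at 467 in Ocn-EV and 557 in Prx1-EV, against 216 in All-EV (log2 1.11 and 1.36), and Wwtr1, which encodes TAZ, at 184 and 204, against 96.2 (log2 0.93 and 1.08). Of the 9 coactivators and TEAD partners, 6 passed the filter. With Ocn-EV all 6 were at least 1.5-fold higher than with All-EV, and with Prx1-EV 5 were, all but Tead2 (log2 0.54, −0.00 to 1.13), which with equal totals stood at 0.77, so that all 6 were. The TEAD cofactor Vgll3 stood highest among them with both, at 1.83 and 1.63.

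With Ocn-EV the Hippo kinases and their upstream regulators were spread around the level of all genes, and with Prx1-EV their median lay above it. Of 14 listed, 13 passed. With Ocn-EV 2 were higher by 1.5-fold (13.8% of all genes) and 0 lower (13.6% of all genes), at a median log2 of 0.03. With Prx1-EV 3 were higher (12.7% of all genes) and 0 lower (12.7% of all genes), at a median of 0.28. The higher ones were Frmd6, a junctional activator of the pathway, at 1.05 and 1.09, the kinase Taok3 at 0.83 and 0.80, and with Prx1-EV also Taok2 at 0.64. The core kinase Stk3 had the lowest ratio in each comparison with All-EV, at −0.44 and −0.24. With equal totals the list had 4 higher with Ocn-EV and 5 with Prx1-EV, at medians of 0.29 and 0.50. On that scale all genes had medians of 0.24 and 0.22, and the 10 targets 1.17 and 1.03. As deposited, the median of the 10 targets was also higher than that of the list in both comparisons (0.91 and 0.80). This difference was not tested, and the 10 were chosen with earlier results of these data known, so it only describes the 2 lists.

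Other known targets of YAP and TAZ held both higher and lower genes. Of 15, 13 passed the filter, and 6 were at least 1.5-fold higher and 2 lower with Ocn-EV (median log2 0.50). Prx1-EV gave the same counts and a median of 0.58, although the 6 higher genes were not all the same. Ccdc80, a secreted matrix protein, had log2 ratios of 3.41 and 2.97, and Tgfb2, a growth factor, 2.63 and 2.26. The lower ones were Gadd45a, a stress-induced growth arrest gene, at −1.30 and −1.13, and the ecto-nucleotidase Nt5e at −0.93 and −0.86. The matricellular genes Ccn1 and Ccn2, the best known outputs of YAP, stood at 2705 and 9362 in Ocn-EV, at 2442 and 8905 in Prx1-EV, and at 902 and 3563 in All-EV. With equal totals 8 of the 13 were higher and 2 lower in each comparison with All-EV, at medians of 0.75 and 0.80. The list of 10 was chosen with earlier results of these data known, and holds none of the targets that were lower.

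Transcription factors that share enhancers or stimuli with TEAD, and the actin genes listed with SRF, gave a mixed picture. None of the 6 AP-1 subunits that passed was 1.5-fold apart with Ocn-EV (median log2 −0.18), and with Prx1-EV 1 was higher, Jun at 0.60, and the median was −0.47. With equal totals these medians were 0.08, a change of sign, and −0.24, and Jun was past 1.5-fold with Ocn-EV too (0.79). Of 12 SRF and actin genes, 5 were higher and 1 lower in both comparisons with All-EV. Myl9, Cnn1 and Acta2 had log2 ratios of 1.79, 1.74 and 1.74 with Ocn-EV, whereas Srf itself stood at −0.60 and −0.57 and Zyx at −0.52 and −0.62. With Ocn-EV the lower one was Srf, and with Prx1-EV it was Zyx. With equal totals 7 were higher and 0 lower in each.

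**Figure D5:**
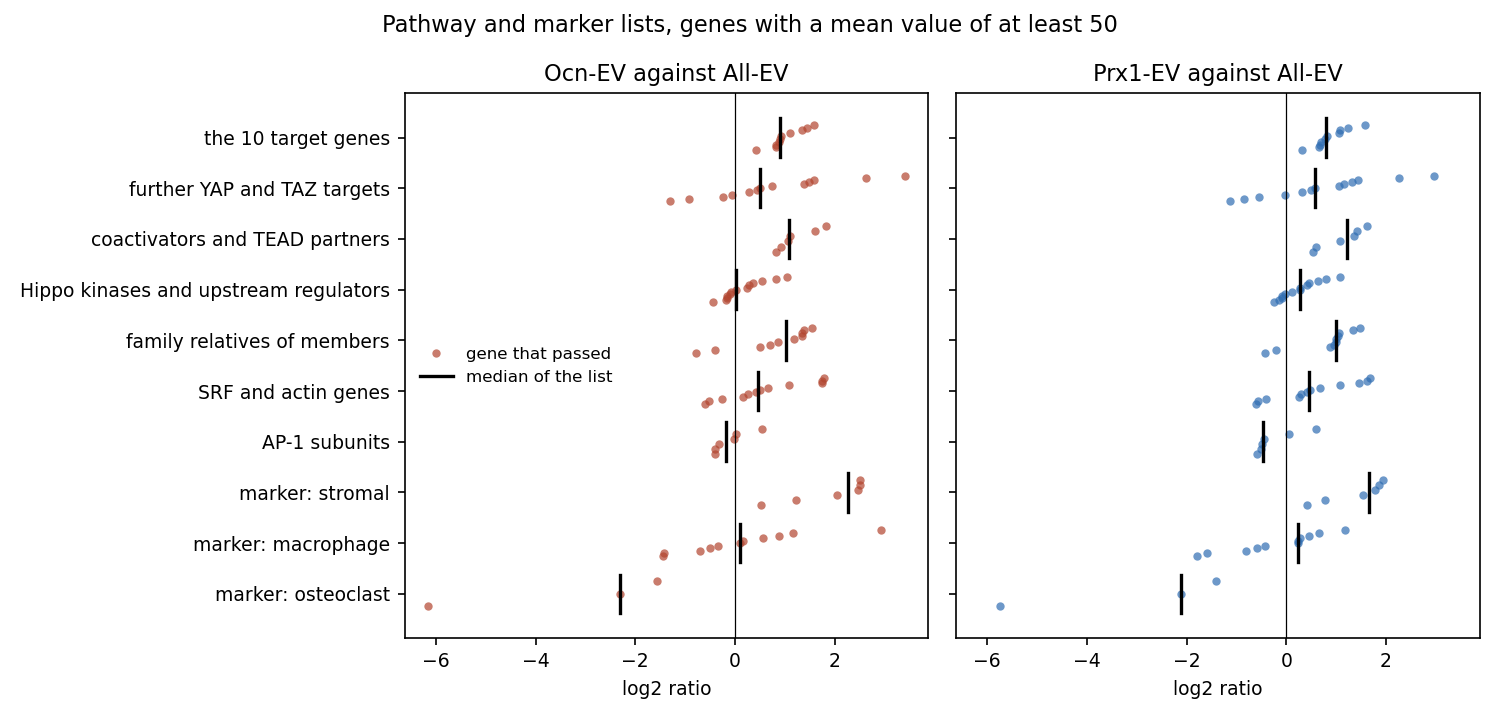
The log2 ratio to All-EV of each gene that passed the filter (points) in the pathway and marker lists, with the median of each list as a vertical bar, for Ocn-EV on the left and Prx1-EV on the right. The medians of the 10 targets are 0.91 and 0.80. Those of the list of Hippo kinases and upstream regulators are 0.03 and 0.28, and those of the stromal markers 2.26 and 1.67.

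Markers of cell types differed between the same libraries, and in bulk RNA fewer cells of a type and less RNA per cell cannot be told apart. The 11 stromal markers took 0.522% of reads in Ocn-EV and 0.340% in Prx1-EV, against 0.0792% in All-EV. Of the 6 that passed, 5 were 1.5-fold higher in each comparison with All-EV and Thy1 was not, although with equal totals it stood at 0.78 and 0.63 and all 6 were. Of the 5 outside the filter, Lum had 0 reads in every library, and Dcn, a matrix proteoglycan, lay the other way with 3 reads in Ocn-EV and 3 in Prx1-EV, against 23 in All-EV. The 11 macrophage markers, all of which passed in these cultures labelled as stromal, took 0.950%, 0.820% and 1.35%, with 3 higher and 3 lower with Ocn-EV and 2 higher and 4 lower with Prx1-EV. With equal totals these counts were 4 higher and 2 lower with Ocn-EV and 3 higher and 2 lower with Prx1-EV. Without Lyz2, the macrophage marker with most reads, the summed shares were 0.599%, 0.551% and 0.558%. The 4 smooth muscle and pericyte markers took 0.10%, 0.0910% and 0.0247%, mostly through Acta2, which is also among the SRF and actin genes. The 5 endothelial markers took 0.00665%, 0.00663% and 0.00395%. The osteoclast markers took 0.00749%, 0.00841% and 0.0438%, with Dcstamp and Calcr at 0 reads in all 3 libraries. Megakaryocyte markers, nearly all Pf4, took 0.0124%, 0.0106% and 0.0596%. Adipocyte markers, nearly all Fabp4 and with Adipoq at 0 reads in each library, took 0.00736%, 0.0102% and 0.00991%. Neutrophil and epithelial markers took at most 0.000283%. The part of these shifts in the ratios of the 10 targets was not tested.

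At the median, the members were longer than the genes that passed. Their longest transcripts had a median of 4809 bases (2020 to 10746), against 3520.5 for all genes that passed. Those of Ankrd1, Nuak2 and Ajuba were below 3520.5. With the trend on length and GC content removed, 8 of 10 members stayed at least 1.5-fold higher with Ocn-EV, without Lats2 and Ptpn14. With Prx1-EV 7 did, without Lats2, Ptpn14 and Axl. The median of all genes was then 0.00 in both comparisons, and their share past 1.5-fold on these ratios is not given here. Ajuba, Amotl2, Tead1 and Ankrd1 then had log2 ratios of 1.42, 1.23, 1.23 and 1.26 with Ocn-EV.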

How the data were processed

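Messenger RNA of 3 cultures was sequenced, 1 library per group, from 100 ng of total RNA as 150-base read pairs, per the labels' protocols. The deposited file gives each gene a normalised count per library (a signal made by the authors). The submitters' processing notes list DESeq2 2.11.40.8, featureCounts 2.0.3, HISAT2 2.2.1, Trimmomatic 0.38.1, FastQC 0.74 and build mm10, without order or settings. Use of strand is not stated there. All values (100% in each library, tolerance 1e-06) were whole multiples of 1 read, which gave 14233978 (Ocn-EV), 17269204 (Prx1-EV) and 15558165 (All-EV) reads.

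Symbols came from RefSeq GRCm38.p6 and exon lengths from GENCODE vM21. Ratios are log2((a + 1)/(b + 1)) of deposited values, which understates ratios of low genes, and folds are plain ratios. Genes with a mean of at least 50 entered. Intervals (95%) are exact conditional binomial for ratios and Clopper-Pearson for shares. They cover counting error only and not the spread between cultures. Reads without molecular identifiers can be copies of 1 molecule, so even counting error may be understated. An exact binomial test on the reads was added after the data were seen. Of 11067 genes and in either direction, it called 7177 (64.9%) in the first comparison (Ocn-EV, All-EV). It called 7119 (64.3%) in the second (Prx1-EV, All-EV) and 2872 (26.0%) in the third (Ocn-EV, Prx1-EV).

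All 10 members were named, and any gene of lists of up to 9 could be. From longer lists, the 3 highest and 3 lowest ratios, partners and relatives of members, Ccn1 and Ccn2 could be named. Single cell type markers were named after their values were seen. The members and lists were chosen with earlier results of these data known, and the family shares after the data were seen. Alternatives were other filters, pseudocounts, folds and scalings (equal totals, TMM in edgeR 4.0.16), and removal of lowess trends. Calculations ran in Python 3.11.15 and were tested on simulated data.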

Additional observations from a re-analysis of the deposited data

How the results depend on the processing

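With 1 library per group the spread between cultures is unknown, and depth limits Ajuba and Nuak2 most (61 and 119 reads in All-EV). At a fold of 2, 4 members were higher with Ocn-EV and 4 with Prx1-EV than with All-EV, against 9 each at 1.5-fold. With the length and GC trend removed, the median log2 ratio with Prx1-EV was 0.62, against 0.80 as deposited. With all libraries scaled to 1 total, the median of all genes shifted to 0.24 (Ocn-EV) and 0.22 (Prx1-EV) against All-EV. On that scale the members' medians were 1.17 and 1.03, and 10 and 9 members were at least 1.5-fold higher. The share of all genes past 1.5-fold on that scale is not given here. The rise from 9 to 10 is thus not told apart from the shift of all genes. The binomial test on reads, added after the data were seen, called 2 members higher with Ocn-EV than with Prx1-EV, against 0 at 1.5-fold. Under the other filters, pseudocounts and TMM factors the counts stayed within 1.5 times. All 10 ratios to All-EV stayed above 0 under each scaling, pseudocount and trend alternative. No paired analysis was possible because each group has 1 library.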
